A study of Drosophila melanogaster with 22 samples.

Results

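The regions described here had a FAIRE-seq peak in both dorsal appendage discs (haltere and wing) of Drosophila melanogaster larvae and none in the leg disc. They were chosen by peak calls alone. Peaks of the haltere, wing and leg disc lists of 6 chromosome arms (2L, 2R, 3L, 3R, 4, X) were pooled, peaks sharing at least 1 bp were chained into merged regions, and regions with haltere and wing disc peaks but no leg disc peak were kept. There were 778 such haltere-wing regions among 21489 merged regions (3.62%). FAIRE-seq recovers DNA that is not held by protein after fixation, so that its peaks mark open chromatin.

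Haltere, wing and leg discs came from larvae of the third instar of a y;cn,bw,sp strain, with 3 FAIRE replicates named behind each disc list. Another 8 FAIRE lists served as readouts that the choice of regions did not touch. These were the haltere, wing and T3 leg of pharate adults at stage P14 and the eye-antennal disc and central nervous system (CNS) of larvae, all y;cn,bw,sp, and whole OregonR embryos, timed from egg laying, of 2 to 4 h, of 6 to 8 h and of 16 to 18 h. Transcript levels of the same 3 discs, 1 FPKM value per gene and disc from 2 replicates, were set beside them. Every tissue was a whole dissected organ or embryo, so that fewer cells of a type and a weaker opening, or less RNA, in each cell cannot be told apart.

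Imaginal discs are epithelial sacs in the larva that form the adult appendages at metamorphosis. The wing disc of the second thoracic segment (T2) and the haltere disc of the third (T3) are dorsal discs, whereas the T3 leg disc is ventral. Haltere and leg disc therefore share a segment and its Hox gene Ubx, while haltere and wing disc share a dorsal identity. In it, vg and its partner sd specify the wing field, ap the dorsal compartment, and pnr and tup the body wall. Open regions away from promoters are often enhancers, stretches of DNA that bind transcription factors and act on genes at a distance.

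Each disc was represented by 1 peak list, of 18031 peaks for the haltere, 14285 for the wing and 18123 for the leg disc. With no values per replicate, no difference between lists could be tested, and the exact (Clopper-Pearson) 95% binomial intervals given with shares cover counting error only. The number of reads behind each list was not known. A region without a listed leg disc peak may still have had a weaker opening in the leg disc. No annotation of the genome build of the peaks (dm3) was used here, so regions are given by position and not by gene.

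Haltere-wing regions were narrower than the average disc region and of modest score, as were the other regions of 2 discs. Their median width was 383 bp (255 to 1437), against 385 bp in regions of leg and haltere discs only, 347 bp in regions of leg and wing discs only and 449 bp over all merged disc regions. Of the 778, 773 were built from exactly 1 haltere and 1 wing disc peak. The 2 peaks of a region lay on the same spot: the overlap covered a median of 100% of the shorter peak (lowest 23.9%), and the centres were a median of 21 bp apart. The authors' score per peak had a median of 8.51 in the haltere disc, against 11.11 over all haltere disc peaks. In the wing disc the median score was 7.25, against 12.00 over all wing disc peaks. Because these 2 lists chose the regions, such values are a description.

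On ranks within each list, the median region stood at percentile 35 of haltere disc peaks and at percentile 27.2 of wing disc peaks. Leg-haltere regions stood at percentiles 21.7 (leg) and 29.2 (haltere), and leg-wing regions at 43.5 (leg) and 29.5 (wing). Of the 778 regions, 124 were in the better-scoring 50% of both lists, 103 in that of the haltere disc alone, 51 in that of the wing disc alone, and 500 in neither. The best 10% of haltere disc peaks held 4 of the regions, and the best 10% of wing disc peaks held 1. The rank was higher for 491 regions in the haltere disc and for 287 in wing. Across the regions, the 2 percentiles had a Spearman rho of 0.61 (n = 778). The lists share a strain, an assay and, at a region, the same DNA, and the value is a description.

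**Figure D1:**
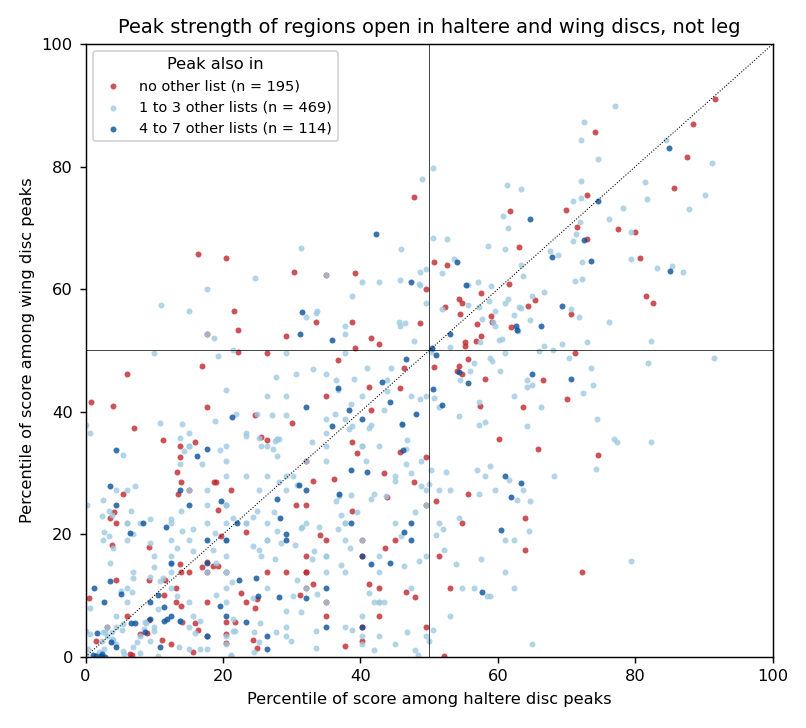
Each point is 1 of the 778 haltere-wing regions, placed by the percentile of its best score among haltere disc peaks (x axis) and among wing disc peaks (y axis), with colour for the number of other lists that have a peak there. Most regions lie at the lower left, and regions with no peak in another list (n = 195) occur along the whole range, up to the strongest region at percentiles 91.6 and 91.1.

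Most of the regions were well separated from leg disc peaks. The median distance to the nearest leg disc peak was 1527 bp. A leg disc peak lay within 100 bp of 10 regions (1.29%), within 500 bp of 170 (21.9%) and within 1000 bp of 299 (38.4%). For regions of leg and haltere discs only, the wing disc being the missing one, 19% had a wing disc peak within 500 bp. For regions of leg and wing discs only, 29.1% had a haltere disc peak within 500 bp. A leg disc peak that ended within 20 bp was found for 2 haltere-wing regions, and within 50 bp for 5.

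At the edge of the class, the closest region was 3L 8653351 to 8653759 (haltere score 18.54, wing score 11.66), 9 bp from a leg disc peak. Next were 2R 20762930 to 20763225 (6.64 and 4.41) at 13 bp and 3R 21007355 to 21007873 (5.2 and 4.94) at 37 bp. Just outside stood 3L 160608 to 161427, in which the leg disc peak shared at most 17 bp with a peak of either other disc (haltere score 4.3, wing score 5.19, leg score 3.93). The next was 3R 24731661 to 24732262 with 55 bp shared (11.05, 4.49 and 3.91). Among regions of all 3 discs with 1 leg disc peak, only 1 was held together by a leg overlap of 50 bp or less. Regions with more than 1 leg disc peak were left out of this ranking.

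The strongest regions were ranked by the lower of their 2 percentiles. First was 2L 14381776 to 14382350, with a score of 54.32 in haltere and 59.17 in wing disc, 3875 bp from the nearest leg disc peak. The region 2L 9816152 to 9816532 followed, with scores of 42.73 and 45.45 and 11219 bp to a leg disc peak. Neither had a peak in any of the other 8 lists. On 2R the best were 7650708 to 7651283 (33.77 in haltere, 40.2 in wing) and 16490958 to 16491854 (34.4 and 37.58). The first of them also had peaks in pharate haltere (25.92) and wing (4.67), and the second in 6 lists, among them embryos at 2 to 4 h with a score of 269.02.

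On the other arms the best regions ranked lower than the first of 2L. Those of X were 12150176 to 12150915 (haltere 29.0, wing 29.11) and 16659218 to 16659850 (21.74 and 34.65). Those of 3R were 9742556 to 9743237 (35.68 and 27.9) and 24917581 to 24918159 (41.05 and 24.49). Those of 3L were 12552102 to 12552800 (20.41 and 26.75) and 14357567 to 14358001 (percentiles 72.1 and 84.3), the second being 34706 bp from any leg disc peak. Chromosome 4 held 3 regions, led by 537704 to 538299 (13.13 and 9.83). Of the 20 strongest regions 8 were on 2L and 6 on 2R, and they stood at percentile 72.1 or above in both lists.

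Among these 20, 6 had no peak in any other list (13.9% of all disc regions), 8 had a peak in some pharate appendage (76.6% of all) and 7 in some embryo list (46.7% of all). Among all disc regions above percentile 60 these shares were 3.96%, 85.1% and 76.7%. Most of those regions (4745 of 5206) had peaks in all 3 discs. Above the same percentile, leg-haltere regions (n = 33) had 15.2%, 78.8% and 42.4%. Leg-wing regions (n = 39) had 7.69%, 69.2% and 41%, so that a low embryo share was common to strong regions of 2 discs. Of the 20, pharate haltere and pharate wing had a peak at 7 each (68.6% and 53.9% of all disc regions), the pharate leg at 3 (51.9%), the eye-antennal disc at 3 (30.9%) and the CNS at 2 (24.5%). A few regions leaned to 1 disc: 2L 11398936 to 11399620 scored 24.05 in haltere and 54.57 in wing disc, and 2R 8783916 to 8784428 scored 20.06 and 46.42. The other way round, 2L 7373326 to 7374279 scored 47.98 in haltere and 26.64 in wing disc. This region was also strong in the pharate haltere (247.5) and pharate wing (79.85) and weaker in the pharate leg (17.79). The scale of the score is not known to be shared between lists, so these pairs are given side by side only.

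Fewer of the regions were found in pharate appendages than of disc regions in general. A pharate haltere peak was present at 338 of the 778 (43.4%, 39.9 to 47), against 68.6% of all merged disc regions. A pharate wing peak was present at 268 (34.4%, 31.1 to 37.9), against 53.9%. A pharate leg peak was present at 188 (24.2%, 21.2 to 27.3), against 51.9%. Among the 3 pharate appendages the leg thus had the lowest share. The 3 shares were read on the same 778 regions, so their separate intervals do not compare the lists. In regions of leg and haltere discs only, the pharate wing share was as low (35.6%, 33.8 to 37.5), while the pharate haltere had 71.6% (69.8 to 73.3) and the pharate leg 38% (36.1 to 39.9). Regions of leg and wing discs only had 51.2% (47.6 to 54.8), 56.4% (52.8 to 59.9) and 55.5% (51.9 to 59) in pharate haltere, wing and leg. The pharate haltere list is the longest, with 30374 peaks. With each list cut to its 9975 top peaks, the shares were 12.5%, 12.3% and 9.9% for pharate haltere, wing and leg, closer together than over the full lists. All disc regions then had 33.9%, 32.1% and 31.5%. Leg-haltere regions had 20%, 11.3% and 12.3%, and leg-wing regions 25.7%, 34.1% and 35%.

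The combination of pharate appendages was recorded for every region. Peaks in pharate haltere and pharate wing without pharate leg, the same pattern as in the discs, were present at 64 regions (8.23%, 6.39 to 10.4), against 5.81% of all disc regions. Peaks in all 3 pharate appendages were present at 125 (16.1%, 13.6 to 18.8), against 41.4%. The pharate haltere alone had a peak at 129 (16.6%), the same share as of all disc regions (16.6%), and the pharate leg alone at 12 (1.54%), against 1.31%. The pharate wing alone had a peak at 48 (6.17%, 4.58 to 8.1), against 2.26%, and 349 (44.9%, 41.3 to 48.4) had none, against 23.4%. The dorsal pattern of the disc was therefore seen again, as a peak pattern, at a small part of the regions. It was not particular to them: leg-haltere regions had it at 6.74% (5.81 to 7.77), an interval that overlaps theirs. Leg-wing regions had it at 2.83% (1.78 to 4.26). Regions of leg and haltere discs only had their own pattern again in 9.5% of cases (8.4 to 10.7), against 4.74% of all disc regions. Regions of leg and wing discs only had theirs in 14.7% (12.3 to 17.4), against 4.45%.

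Other larval tissues had few of these regions. The eye-antennal disc, which forms eye, antenna and head cuticle, had a peak at 83 (10.7%, 8.59 to 13.1), against 30.9% of all disc regions. The larval CNS had a peak at 40 (5.14%, 3.7 to 6.94), against 24.5%. In regions of leg and wing discs only, the corresponding shares were 40.2% (36.7 to 43.7) and 32.8% (29.5 to 36.2). In regions of leg and haltere discs only they were 6.24% (5.35 to 7.24) and 8.66% (7.6 to 9.8). The 2 classes that contain the haltere disc and lack another appendage disc were thus low in both tissues, and the class that lacks the haltere disc was high. The eye-antennal and CNS lists are also the shortest, with 9975 and 9990 peaks. With each list cut to 9975 peaks, haltere-wing regions had 10.7% (8.59 to 13.1) in the eye-antennal disc and 5.14% in the CNS. The pharate haltere, wing and leg then had 12.5%, 12.3% and 9.9%, so the eye-antennal share was like theirs. The same held over all disc regions, with 30.9% in the eye-antennal disc and 33.9%, 32.1% and 31.5% in the pharate lists.

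Embryos had a peak at about 1 in 5 of the regions at each stage. The count was 152 at 2 to 4 h (19.5%, 16.8 to 22.5; 34.7% of all disc regions), 156 at 6 to 8 h (20.1%, 17.3 to 23; 31.3%) and 168 at 16 to 18 h (21.6%, 18.8 to 24.7; 30.3%). Regions of leg and haltere discs only had a like share at 2 to 4 h (19%, 17.5 to 20.6). At 6 to 8 h that class had 10.3% (9.16 to 11.5), and at 16 to 18 h it had 10.1% (8.94 to 11.3), and these intervals did not overlap those of the haltere-wing regions. Regions of leg and wing discs only had more at every stage, with 30.1% (26.9 to 33.5), 28.7% (25.5 to 32) and 25.9% (22.8 to 29.1) in order of stage. Over equal numbers of peaks the shares at 16 to 18 h were 15.4% (13 to 18.2) for haltere-wing regions, 7.05% (6.09 to 8.1) for leg-haltere regions and 19.7% (16.9 to 22.7) for leg-wing regions. Whether the classes differ beyond the spread between replicates could not be tested.

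**Figure D2:**
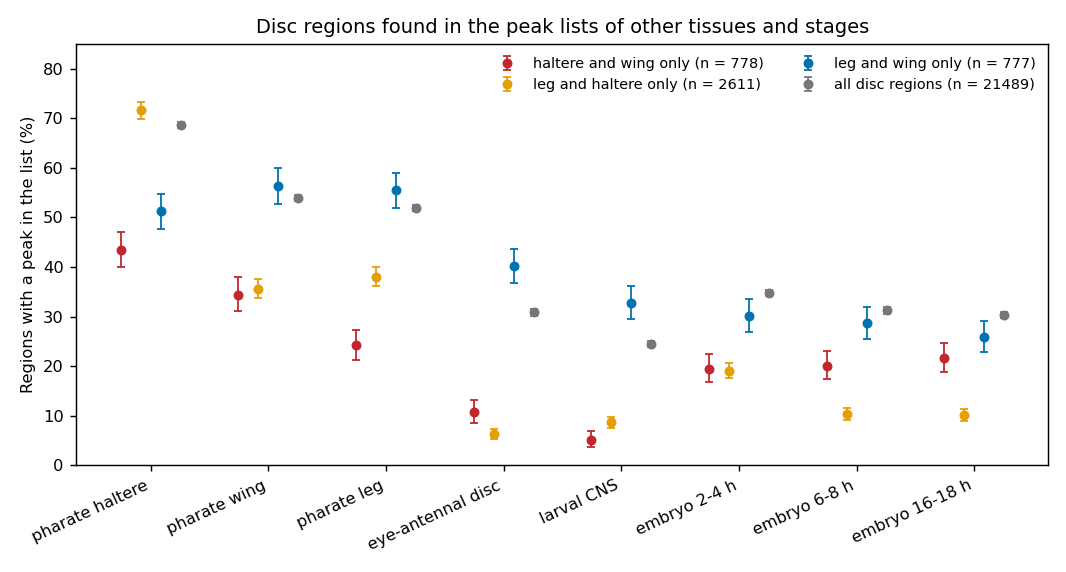
The y axis gives the percent of regions with a peak in each list on the x axis, for haltere-wing regions, leg-haltere regions, leg-wing regions and all merged disc regions, with exact 95% binomial intervals as bars. Haltere-wing regions lie below all disc regions in each of the 8 lists, and above leg-haltere regions in embryos at 6 to 8 and 16 to 18 h (20.1% against 10.3%, and 21.6% against 10.1%).

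Within the embryo lists, 56 regions (7.2%) had a peak at all 3 stages, against 19.1% of all disc regions, and 284 (36.5%, 33.1 to 40) at some stage, against 46.7%. Peaks at 16 to 18 h alone were the most frequent single-stage pattern, at 74 regions (9.51%, 7.54 to 11.8), against 6.36% of all disc regions. Peaks at 2 to 4 h alone were present at 44 (5.66%), against 7.79%, and at 6 to 8 h alone at 30 (3.86%), against 2.14%. Peaks at 2 to 4 h alone were the more frequent in leg-haltere regions (9.88% against 4.1% at 16 to 18 h alone), in leg-wing regions (7.34% against 6.82%) and over all disc regions. In total, 166 of the 778 haltere-wing regions had a peak both in some embryo list and in some pharate list. The share of all disc regions with both was not computed, so this count has no background. Taken singly, 46.7% of all disc regions had an embryo peak and 76.6% a pharate peak.

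Altogether 195 regions (25.1%, 22.1 to 28.3) had a peak in none of the 8 other lists, against 13.9% of all disc regions. A further 195 (25.1%) had a peak in 1 other list, against 18.4% of all disc regions, 154 (19.8%) in 2, against 13%, and 120 (15.4%) in 3, against 15.1%. There were 65 (8.35%) in 4 lists, against 9.57%, 30 (3.86%) in 5, against 7.41%, 13 (1.67%) in 6, against 6.85%, and 6 (0.771%) in 7, against 6.59%. All 8 lists had a peak at 0 of the haltere-wing regions, against 9.23% of all disc regions. The lower disc percentile of the 6 regions with peaks in 7 lists ran from 6.2 to 41.1. Picked after their values were seen, they included 2R 9827296 to 9827582 (10.74 in haltere, 9.47 in wing, 239.94 in embryos at 2 to 4 h) and X 6992058 to 6992312 (7.95, 7.38 and 116.73).

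Shares in other lists were also read by disc score. By the lower of the 2 disc percentiles, a peak in some pharate appendage was present at 61.2% (56.1 to 66.2, n = 374) of regions up to percentile 20, 54% (46.8 to 61, n = 202) from 20 to 40, 46.2% (37.9 to 54.7, n = 145) from 40 to 60 and 42.1% (29.1 to 55.9, n = 57) above 60. Over all of the 778 it was 55.1%, against 76.6% of all disc regions. The same 4 bands of all disc regions had 75.7%, 72.5%, 72.4% and 85.1%. Leg-wing regions had 78.6%, 68.4%, 65.1% and 69.2%, and leg-haltere regions 77.4%, 75.8%, 66.7% and 78.8%, so that a lower share in the third band than in the first was common to the 3 classes. In the pharate wing list the haltere-wing shares were 39%, 30.7%, 26.9% and 36.8%, with no steady order. The median widths of haltere-wing regions in the 4 bands were 382, 361, 383 and 575 bp, and the part of width in these shares was not tested.

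Eye-antennal disc peaks had the opposite order, with higher shares in the stronger bands. Haltere-wing regions had them in 6.15% (3.94 to 9.08), 12.9% (8.58 to 18.3), 15.9% (10.3 to 22.8) and 19.3% (10 to 31.9) of cases from the lowest to the highest band. Leg-haltere regions had a similar low course, with 5.3%, 6.56%, 10.2% and 12.1%. All disc regions had 9.45%, 16.2%, 32.2% and 74.4%, so that the gap from haltere-wing regions was widest in the strongest band. Leg-wing regions had 24.1%, 39.3%, 58.3% and 79.5%, above all disc regions in each band. For some embryo stage, haltere-wing regions had 32.9% (28.1 to 37.9), 44.6% (37.6 to 51.7), 33.8% (26.2 to 42.1) and 38.6% (26 to 52.4), against 30.9%, 36.7%, 49.7% and 76.7% of all disc regions. The lowest band was thus near the share of all disc regions, the next was above it and the upper 2 were below.

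**Figure D3:**
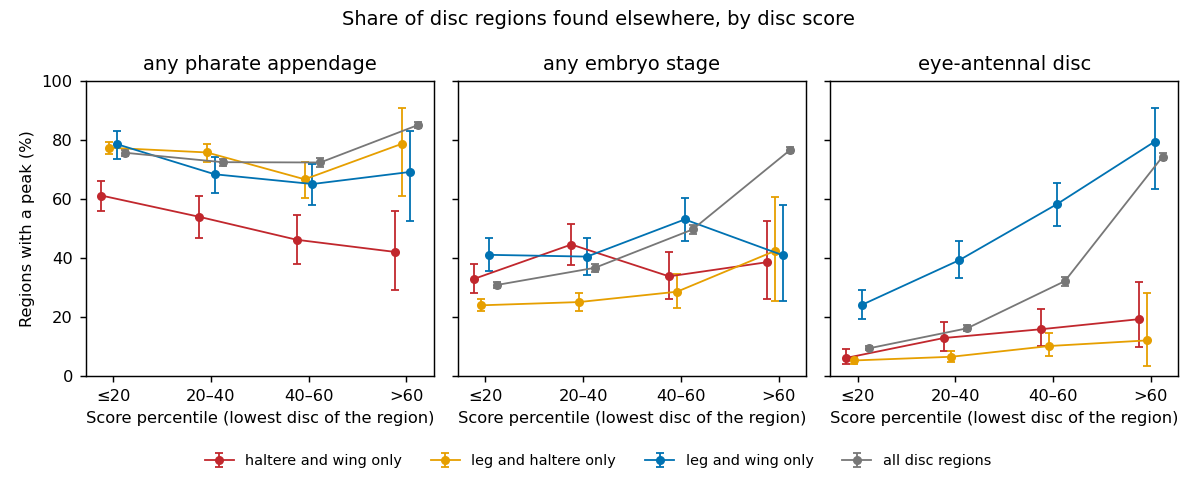
Percent of regions (y axis, with exact 95% binomial intervals) that have a peak in some pharate appendage, in some embryo stage or in the eye-antennal disc, by the lowest disc percentile of the region (x axis), for the same 4 sets of regions. Haltere-wing regions run from 61.2% to 42.1% in pharate appendages across the bands, while all disc regions end at 85.1%.

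Where a haltere-wing region met a peak of another list, that peak was usually of middle rank there. Its median percentile within the list was 43.4, 43.8 and 41.9 for pharate haltere, wing and leg, and between 37.2 and 47.7 in the other 5 lists. The regions with the highest score in each list, picked after their values were seen, were an exception. The region 2R 18929234 to 18929561 had scores of only 4.53 in haltere and 6.48 in wing disc, and 656.15 in the pharate haltere. The region 3R 5714937 to 5715471 (14.95 and 13.06 in the discs) had the highest pharate wing score of all members, 361.39, and the highest pharate leg score, 373.01. In embryos at 2 to 4 h the highest was 727.35, at 3R 864645 to 865087 (7.91 in haltere, 7.38 in wing). Their ranks in the discs varied: the region of 2R stood at percentiles 6.09 and 21.8 of the haltere and wing disc lists, that of 3R with the strong pharate leg peak at 62.8 and 53.4, and the embryonic one at 30.8 and 28.1.

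The regions were spread over all arms. They made up 4.2% (3.55 to 4.92) of merged regions on 2L, 3.23% (2.71 to 3.82) on 2R, 3.58% (3.04 to 4.19) on 3L, 3.61% (3.11 to 4.16) on 3R and 3.57% (3.05 to 4.14) on X, close to 3.62% over all arms. On chromosome 4 they were 3 of 53 (5.66%, 1.18 to 15.7). Along the arms some stood together: the nearest other member was at a median of 27658 bp, and 214 (27.5%) had another within 10 kb. In intervals of 50 kb, 561 of the 2202 with any disc region held a member, and 47 intervals with 3 or more held 167 members.

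The interval with most members was 3L 19650001 to 19700000, with 8 of its 22 merged regions. Of the other 14, 10 had peaks in all 3 discs, 1 in leg and haltere and 3 in the haltere disc alone. Scores of the 8 ran from 10.69 to 31.60 in haltere and from 6.76 to 21.36 in wing disc. Between 19667795 and 19674832 lay 6 of them, with 1 weak peak of the haltere disc alone (score 4.07) among them. The haltere disc had 22 peaks in the interval, the wing disc 20 and the leg disc 12. Leg disc peaks with scores of 283.57 and 160.66 flanked these 6 members on either side, and the leg disc had no listed peak between. The pharate haltere had a peak at 6 of the 8, the pharate wing at 2 and the pharate leg at 1. Eye-antennal disc and CNS had a peak at 0 of the 8. The member at 19678342 to 19678700 was the exception with peaks in 6 other lists, among them all 3 pharate appendages and all 3 embryo stages.

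On 2R, the interval 8750001 to 8800000 held 7 members among 18 merged regions. It contained none of the leg-haltere, leg-wing or leg-only regions, 6 regions of all 3 discs, 3 of the haltere disc alone and 2 of the wing disc alone. The members included 8776027 to 8777341, at 1315 bp among the widest, with scores of 40.21 in haltere and 34.92 in wing disc and no peak in any other list. The wing disc had the higher percentile at 8783916 to 8784428 (72.5 in haltere, 87.3 in wing) and at 8797141 to 8797759 (74.1 and 85.7). At 8782997 to 8783382 the scores were 20.06 in haltere and 20.46 in wing disc (percentiles 72.5 and 68). All 3 pharate appendages (haltere 85.51, wing 152.27, leg 10.46) and all 3 embryo stages (49.15, 31.66 and 14.77) had peaks there too. In all, 4 of the 7 had no peak in another list, and embryo peaks met 3 of the 7 at 2 to 4 h.

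**Figure D4:**
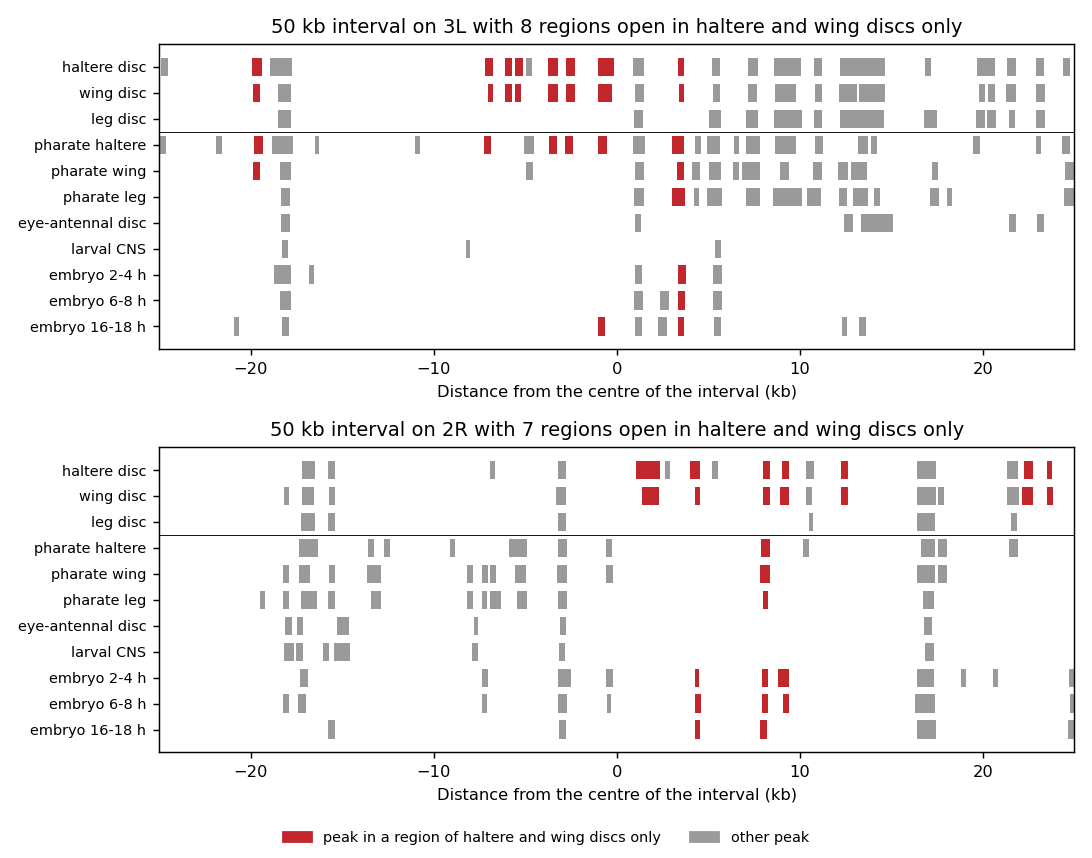
Peaks of the 11 lists (rows) in the 50 kb intervals on 3L and 2R that held most haltere-wing regions, drawn to scale by distance from the centre of the interval in kb (x axis). Peaks in a haltere-wing region are red, and other peaks are grey. On 3L, 6 of the 8 members stand close together left of the centre, between 2 leg disc peaks, and on 2R all 7 members lie right of the centre.

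Another interval, 3R 25300001 to 25350000, had 7 members among 24 merged regions, with scores up to 18.39 in haltere and 17.76 in wing disc. Pharate haltere and pharate wing had a peak at 4 of the 7 each, and the pharate leg at 1. One of them, 25346425 to 25346883, scored 10.93 in haltere and 10.04 in wing disc. In pharate haltere and wing it scored 10.59 and 192.01, on scales not known to be shared between lists. On 2L, 11350001 to 11400000 held 5 members among 11 regions, with wing disc scores up to 54.57, and the other 6 regions were 3 of all 3 discs and 3 of the wing disc alone. On X, 5850001 to 5900000 held 5 members among 16. Also with 5 members were 2L 600001 to 650000, among 22 regions, and 3L 10950001 to 11000000, among 26. Of the 5 intervals with 4 members, 2L 12600001 to 12650000 was picked after its values were seen. Its 4 members had no peak in any of the 8 other lists.

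Transcripts gave a second view of what haltere and wing discs share against the leg disc. A gene counted as higher in both when its FPKM, plus a pseudocount of 1, was at least 2-fold higher in haltere and in wing disc than in leg disc. Among 8681 genes that reached 5 FPKM in some disc, 129 (1.49%) were higher in both and 162 (1.87%) lower in both. These counts include entries of 0, which can be failed estimates. Of the 129, 30 were listed at 0 in the leg disc, and 554 of the 8681 had a 0 in some disc. Of 30 wing field genes in the table, 14 were higher in both and 3 (Wnt2, Wnt4 and Wnt6, all ligand genes) lower in both. The 14 include kn, with 6.44 FPKM in haltere and 45 in wing disc, listed at 0 in leg disc. The median log2 ratio, over genes with no entry of 0, was 0.83 for haltere over leg and 1.95 for wing over leg, against -0.02 and -0.05 over all genes tested. The list was drawn up with earlier results of these data known, so its direction is not independent evidence. With 1 value per disc these differences have no replicate check.

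The selector gene vg, which with sd makes the wing field, had 110 FPKM in haltere and 314 in wing disc, against 2.76 in leg disc. For sd itself the table gave 153 (haltere disc), 0 (wing disc) and 170 (leg disc). An entry of 0 can be a failed estimate, and no ratio is given for it. The zinc finger genes salm and salr, which pattern the wing along its anterior-posterior axis, had 93.6 and 230 FPKM in haltere disc, 136 and 333 in wing disc, and 1.79 and 2.84 in leg disc. The compartment gene ap was at 539 in haltere and 756 in wing, against 61.9 in leg. Of these 5 genes, vg, salm, salr and ap were higher in both dorsal discs than in the leg disc, with vg lower in haltere than in wing disc, and sd was not.

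Among genes of the body wall and hinge, some were higher in both dorsal discs and others were not. The GATA factor gene pnr had 76.3 FPKM in haltere and 107 in wing disc, against 5.47 in leg disc. The LIM homeobox gene tup was at 68.7 and 38.3, against 2.55. Of the Iroquois genes, mirr was at 129 and 184, against 3.89, whereas ara (164 and 258, against 150) and caup (178 and 268, against 94) were not 2-fold higher in both. Of the Dorsocross T-box genes, Doc2 (79.4 and 141, against 35.7) and Doc3 (194 and 163, against 37.1) were higher in both, and Doc1 (108 and 232, against 64.4) was not. The homeobox gene Optix (158 and 119, against 0.976) and tey (115 and 92.9, against 0.932) had the largest lesser ratios of the list beside salr. Membership of a wing field list thus did not fix the pattern gene by gene, and nub, a gene of the wing pouch, was at 98.8 and 315, against 80.5.

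Leg pattern genes ran the other way. Of 20 in the table, 12 were lower in both haltere and wing disc and 3 higher in both. Sp1, a zinc finger gene of leg fate, had 17.1 FPKM in haltere and 4.54 in wing disc, against 784 in leg disc. Its relative btd was at 11.4 and 1.91, against 217, and dac, of the middle leg, at 22.2 and 29.7, against 467. The distal limb gene Dll was at 57.8 and 229, against 866. H15, Lim1 and disco-r were also among the furthest apart, with log2 ratios of haltere over leg between -4.86 and -4.18. The 3 that were higher in both were rn, ss and tsh, and rn is on the wing field list too. With a pseudocount of 5, 1 of the 3 was still higher in both.

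Among the Hox genes, Ubx above all set haltere and wing disc apart instead. Ubx, which specifies T3, had 332 FPKM in haltere and 6.06 in wing disc, against 319 in leg disc. Antp had 23.9 and 61.4, against 49.2, and abd-A had 14.9 and 1.54, against 5.55. Scr, a Hox gene of more anterior segments, was lower in both, at 2.14 and 0.386, against 36.4. Markers of tissue that can be dissected along with a disc were uneven between discs. The 11 measured of 12 such genes, for fat body, salivary gland, haemocytes, muscle, trachea and neurons, summed to 70335 FPKM in haltere disc and 6164 in wing disc, against 19904 in leg disc. Of these, 9 were highest in the haltere disc and lowest in the wing disc, led by the muscle actin gene Act57B (44564 and 3836, against 12343). Act57B and the salivary gland gene Sgs7 (15543 and 1342, against 4526) made up most of each sum. The tracheal gene trh (35.6 and 110, against 131) was lowest in the haltere disc, and the neuronal gene elav (14.3 and 13.2, against 16) differed little. The fat body gene Lsp2 had 2428 and 188, against 690. None of the 11 was at 0 in a disc, and 0 were higher or lower in both. Their part in the transcript ratios was not tested. The genes were not assigned to regions, and the 14 wing field genes and the 778 regions are given side by side only.

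**Figure D5:**
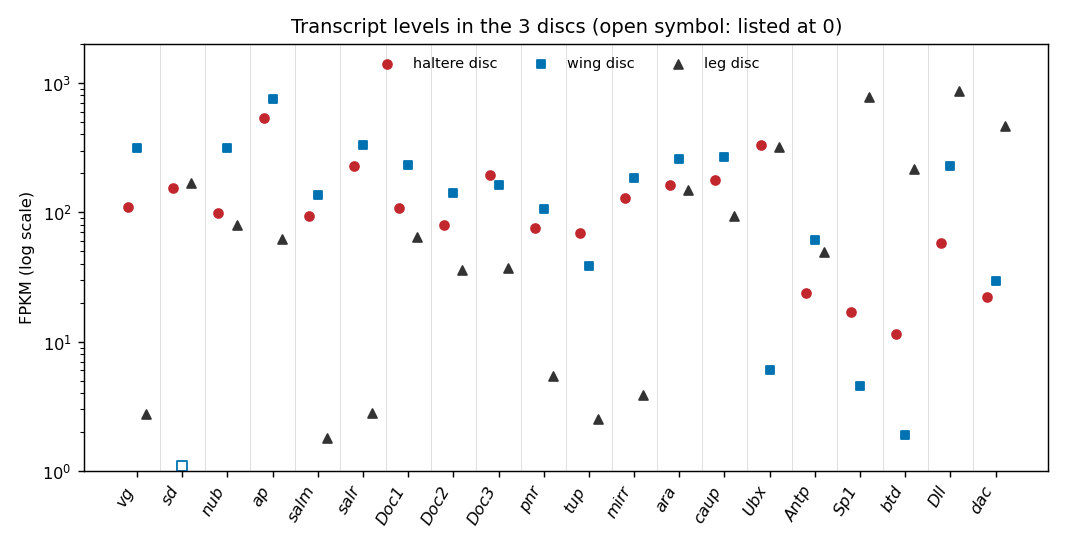
FPKM on a log axis (y) of 20 patterning and Hox genes (x) in the haltere disc, wing disc and leg disc, with 1 value per disc and an open symbol where a gene was listed at 0. The genes vg, ap, salm, salr, pnr, tup and mirr are higher in haltere and wing discs than in the leg disc, while Sp1, btd and dac are highest in the leg disc.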

How the data were processed

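FAIRE peak lists were used as the authors deposited them, with 1 list per tissue and 1 score per peak. The submitters' processing notes name CASAVA 1.7, Bowtie 0.12.3, MACS2, TopHat 1.1.4, Cuffdiff and build dm3. How scores were scaled, peaks thresholded and replicates combined is not given in the sources used here, so scores ranked peaks within 1 list. FPKM values were deposited per gene and disc, per the file headers.

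Positions are dm3, counted from 1. Overlap meant at least 1 shared bp. The 20 regions ranked highest by the lower of their haltere and wing percentile, the 2 best of each arm, the widest region, and the 50 kb intervals with most members were the ones to name, with a fixed set of 20 genes and the 4 members of each gene list furthest apart. The members, lists and rules were chosen with earlier results of these data known. Of 13934 gene entries, 248 with a repeated name were left out, leaving 13686, of which 9978 matched the gene name table. Merging and overlap code (Python 3.11.15, pandas 2.3.3, scipy 1.17.1) was tested on simulated data. Other cuts, overlaps and pseudocounts were tried as alternatives. Genes and sequence beside the regions were not analysed here.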

Additional observations from a re-analysis of the deposited data

How the results depend on the processing

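The number of haltere-wing regions depended on how peaks were cut. It was 1292 with peaks cut to their central 200 bp, 440 among the better-scoring 50% of each disc list, 1362 over 14285 peaks of each disc list, and 124 with only the better-scoring 50% of haltere and wing disc peaks set against every leg disc peak. It stayed within 1.5 times of 778 when a leg disc peak within 200 bp also removed a region (728) and when the haltere and wing peaks had to overlap over 50% of the shorter (774). Over the 9975 best-scoring peaks of each other list, the shares were 12.5%, 12.3% and 9.9% in pharate haltere, wing and leg, against 33.9%, 32.1% and 31.5% of all disc regions. In the embryo lists they were 15.2%, 17.2% and 15.4% in order of stage, against 28.6%, 29.1% and 24.3%. The 124 stronger regions had shares of 32.3%, 29.8% and 18.5% in pharate haltere, wing and leg, 16.9% in the eye-antennal disc, and 16.1%, 26.6% and 15.3% in the embryo lists. With the centre of the peak or of the region required to lie inside the other, the CNS share was 3.6%. Without X, shares stayed within their intervals. A pseudocount of 5 left 1 leg pattern gene higher in both discs, and other transcript counts stayed within 1.5 times. Intervals of 100 kb (most members 10, on 3R) and shifted intervals (8, on 3L) were chosen after seeing the data. Fewer peaks entering a list lower these shares by construction; the cause of the other shifts was not tested. No paired analysis was possible because each tissue had 1 deposited list or value, and no replicate could be left out for the same reason. The alternatives on genes beside regions were not run. Depth is unknown, so absence of a peak is not absence of opening.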

Other observations

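Among the 129 genes higher in both haltere and wing disc than in leg disc, 98 were within 2-fold between haltere and wing disc, 14 were at least 2-fold higher in the haltere disc and 17 at least 2-fold lower there. The same split over all 8681 genes tested was not computed, so these counts have no background. Of the 129, 30 were listed at 0 in the leg disc, while 554 of the 8681 genes tested had a 0 in some disc. The next genes were picked after their values were seen. With all 3 discs above 0 and both dorsal discs at 10 FPKM or more, CG4766, Ect3, amd and nab stood among the 10 genes with the largest lesser ratio. The cofactor gene nab had 279 FPKM in haltere and 278 in wing disc, against 21.2 in leg disc. CG4766 had 277 and 274, against 15.6, Ect3 had 98.2 and 116, against 6.62, and amd had 67.3 and 122, against 4.31. On the lower side, AP-2 had 22.3 and 4.08, against 640, and fd96Ca had 13.5 and 1.53, against 296.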
